A study of Mus musculus with 5 samples.

Results

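The interferon regulatory factor (IRF) family was described through 8 genes, Irf1, Irf2, Irf3, Irf4, Irf5, Irf7, Irf8 and Irf9, chosen by name from the 15287 genes of a single-cell table of mouse bone marrow. All 8 were present in the table, in UMIs (unique molecular identifiers, each of which marks 1 captured transcript) over 12893 cells. Lineage-negative, CD45.2+ and c-kit+ cells (Lin-kit+) were sequenced in 3 libraries, here called a, b and c. Cells of the same kind that carried the ZsGreen reporter of the Fgd5 locus were sequenced in 2 more, Fgd5+ and HSC-Fgd5+, the latter with the additional hematopoietic stem cell (HSC) gate Sca1+CD150+CD48neg. All samples were labelled with the strain Fgd5CreERT2/+Rosa26Tomato/+, an age of 20 weeks and bone marrow, and no treatment was listed, so every group carried 1 modified Fgd5 allele. The cells of a library are known in the table by a barcode suffix alone, which was matched to a population by its number of cells, and titles and sources of the reporter-positive samples disagree on which had the HSC gate. The number of mice was not given, so the libraries may be loadings of 1 suspension and the p-values measure only the spread between libraries.

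The Lin-kit+ libraries held between 1339 and 6147 cells and between 10000606 and 36080242 UMIs, the Fgd5+ library 793 cells and 4168367 UMIs, and the HSC-Fgd5+ library 519 cells and 2166655 UMIs. Medians ran from 3721 to 6567 UMIs per cell. Between libraries, 62 barcodes occurred more than once, and each was kept as a separate cell. As a check of the sorts, markers of HSCs (10 genes, among them Procr, Mecom and Hlf) summed to between 64.6 and 69.2 CPM (counts scaled to a total of 1000000 UMIs) in the Lin-kit+ libraries and to 1729 and 1827 in the reporter-positive libraries.

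IRF proteins bind a shared DNA element through a conserved N-terminal domain and differ in what activates them. IRF3 and IRF7 are phosphorylated below sensors of foreign nucleic acid and switch on type I interferon genes, and IRF5 acts below Toll-like receptors. IRF9 is the DNA-binding part of the complex that carries the type I interferon signal to the nucleus, IRF1 is itself induced by interferon, and IRF2 occupies the same sites as IRF1 and opposes it. IRF4 and IRF8 bind weakly alone and pair with the Ets factor PU.1 (Spi1) or with BATF factors, and IRF8 is known for its role in monocyte and dendritic cell fates, while IRF4 is known from plasma cells and other lymphocytes.

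Promoter windows from RefSeq (GRCm38.p6, 250 bases before to 50 after a start site) were found for all 8 genes, 11 windows in all. They were searched on both strands for the core of the interferon-stimulated response element (GAAA and GAAA with any 2 bases between them), for the STAT site known as GAS (TTCNNNGAA) and for the composite of an Ets and an IRF site (GGAA and GAAA with any 2 bases between them). Matches were present in 1 window each of Irf1, Irf2 and Irf8 and in none of the other 8 windows. These 3 windows are shown because they are the ones with a match, and because Irf8 was the most abundant member in Lin-kit+ libraries and Irf2 in reporter-positive libraries. Each stretch runs from 250 to 51 bases before the start site on the plus strand, with the matches in capitals, at chr11:53769764-53769963 for Irf1, chr8:46739495-46739694 for Irf2 and chr8:120736108-120736307 for Irf8.
Irf1: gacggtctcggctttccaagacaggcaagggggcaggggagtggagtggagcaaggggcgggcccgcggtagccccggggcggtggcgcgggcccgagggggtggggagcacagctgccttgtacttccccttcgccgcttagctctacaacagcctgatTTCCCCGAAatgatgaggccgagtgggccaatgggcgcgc
Irf2: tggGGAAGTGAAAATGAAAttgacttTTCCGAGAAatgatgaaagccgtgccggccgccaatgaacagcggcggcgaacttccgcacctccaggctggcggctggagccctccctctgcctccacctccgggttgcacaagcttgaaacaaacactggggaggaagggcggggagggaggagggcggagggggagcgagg
Irf8: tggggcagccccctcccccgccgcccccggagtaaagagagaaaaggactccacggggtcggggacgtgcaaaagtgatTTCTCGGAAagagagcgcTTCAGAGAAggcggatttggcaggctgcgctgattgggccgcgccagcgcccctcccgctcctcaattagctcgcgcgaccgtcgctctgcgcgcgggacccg

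The Irf1 window held 1 GAS match and the Irf8 window 2. In the Irf2 window an Ets-IRF match ran into a response element match, so that 1 capital run holds both, and a GAS match followed. Of all 32851 RefSeq windows, 3.44% held the response element core, 8.30% a GAS match and 2.72% the Ets-IRF composite. A match describes the letters only, and binding was not measured. The genes lie at chr11:53770014-53778374 (Irf1), chr8:46739732-46847458 (Irf2), chr7:44997648-45002848 (Irf3), chr13:30749226-30766976 (Irf4), chr6:29526625-29541871 (Irf5), chr7:141262706-141266481 (Irf7), chr8:120736358-120756694 (Irf8) and chr14:55603571-55610030 (Irf9) in the GENCODE M21 annotation of GRCm38. Reads were taken from the 3′ end of each transcript, so each UMI stands for 1 molecule whatever the length of the gene, and levels of different genes are compared below as CPM, the UMIs of a gene scaled to the total of the library or class.

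Lin-kit+ and reporter-positive marrow differed in nearly the whole family. Reporter-positive libraries had 52.3-fold less Irf8, the myeloid fate factor, and more Irf1, Irf2, Irf7 and Irf9, by between 2.36-fold and 3.95-fold in the fitted comparison. Irf5 was 2.70-fold lower, Irf3 did not pass the test, and Irf4 was too sparse to be tested. The sizes depend on scaling and processing. Over the main fit and all alternatives, the log2 fold change ran from -6.58 to -5.18 for Irf8 and from -1.65 to -0.90 for Irf5. Of the 8 genes, 7 had enough counts for the test and 6 passed an adjusted p of 0.05 (edgeR quasi-likelihood test with Benjamini-Hochberg adjustment over 11991 genes), 4 higher and 2 lower. These populations differ so widely that 63.1% of all tested genes passed, 32.7% higher and 30.4% lower, so the count of members by itself says little and the sizes carry the description.

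Irf8 stood at 442, 411 and 401 CPM in the Lin-kit+ libraries, at 14.9 CPM in Fgd5+ and at 6.46 CPM in HSC-Fgd5+. The groups were far apart, and the fitted log2 fold change was -5.71 (SE 0.26, edgeR adjusted p = 5.70e-06). Most of the Irf8 of the Fgd5+ library came from few cells: 36 of its 62 UMIs lay in 5 cells outside the HSC-like clusters described below, 3 of them dendritic-like with 29 UMIs. With the reporter-positive libraries limited to HSC-like cells, a choice made after the data were seen, the log2 fold change of Irf8 was -6.45. In the whole libraries, the 12 monocyte markers summed to between 3229 and 3301 CPM in Lin-kit+ and to 366 and 325 CPM in Fgd5+ and HSC-Fgd5+, where Ccr2, Csf1r, Fn1 and Cx3cr1 were at 0 in the latter. The sum of the 13 dendritic markers was no lower in reporter-positive libraries (929 and 1020 CPM against 815 to 868), but Siglech, Cox6a2 and Itgax were at 0 in both. Sums over whole libraries do not separate fewer cells of a type from less RNA per cell, but the classes described below give cell numbers. Monocyte-like cells made up 13.9 ± 1.09% of Lin-kit+ libraries (mean ± SD), 0.126% of Fgd5+ and 0% of HSC-Fgd5+. Dendritic-like cells made up 4.48 ± 0.346%, 0.378% and 0%, and HSC-like cells 4.99 ± 0.423%, 90.8% and 92.9%. The part of these shares in the Irf8 difference was not tested.

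Irf5, the other member lower in reporter-positive marrow, measured 24.4, 19.4 and 21.2 CPM in the Lin-kit+ libraries against 12.5 CPM in Fgd5+ and 10.2 CPM in HSC-Fgd5+. No value of one group reached the other, with a log2 fold change of -1.43 (SE 0.17, edgeR adjusted p = 0.000329).

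The pair of antagonists Irf1 and Irf2 rose together. Irf1 measured 16.0, 15.5 and 16.6 CPM in the Lin-kit+ libraries and 65.5 and 57.2 CPM in Fgd5+ and HSC-Fgd5+ (log2 fold change 1.41, SE 0.11, edgeR adjusted p = 3.76e-05). Irf2 measured 33.8, 31.2 and 34.1 CPM against 154 and 152 CPM (log2 fold change 1.67, SE 0.08, edgeR adjusted p = 6.16e-06). For both genes the lowest reporter-positive library lay far above every Lin-kit+ library, and Irf2 was the most abundant member in reporter-positive cells.

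Irf7 and Irf9, which act on the 2 sides of the type I interferon loop as inducer and as carrier of the signal, were higher as well. Irf7 measured 5.20, 5.62 and 6.24 CPM in Lin-kit+ and 33.1 and 32.8 CPM in Fgd5+ and HSC-Fgd5+ (log2 fold change 1.98, SE 0.13, edgeR adjusted p = 2.17e-05). Irf9 measured 18.4, 22.9 and 24.9 CPM against 80.6 and 71.1 CPM (log2 fold change 1.24, SE 0.14, edgeR adjusted p = 0.000279). Irf7 had the largest rise of the 8 members, though from the lowest level among the 7 tested genes.

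Irf3, the sensor-activated member that is present in most cell types, was close to level. It measured 37.3, 41.3 and 43.5 CPM in the Lin-kit+ libraries, 46.8 CPM in Fgd5+ and 60.5 CPM in HSC-Fgd5+. Although every reporter-positive CPM was the higher one, the fitted log2 fold change was -0.16 (SE 0.13, edgeR adjusted p = 0.311), and it became 0.38 (edgeR adjusted p = 0.036) with library totals in place of TMM scaling. Library totals moved the fold changes of all genes up by a median of 0.54 on the log2 scale and the share of higher genes among those called from 51.8% to 76.8%, so the direction of Irf3 follows the scaling. The other 6 tested members kept their direction and their side of the threshold under both. On the CPM scale, the libraries of the 2 groups did not overlap for 7 of the 8 members (5 higher, 2 lower in reporter-positive libraries), beside 82.4% of all tested genes (61.8% higher, 20.6% lower).

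Irf4 had 18 UMIs in all, 8, 5 and 4 in the Lin-kit+ libraries, 0 in Fgd5+ and 1 in HSC-Fgd5+. A count of 0 in Fgd5+ allows up to 0.720 CPM, above the level of 2 of the Lin-kit+ libraries, so a difference was not detectable at this depth.

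**Figure D1:**
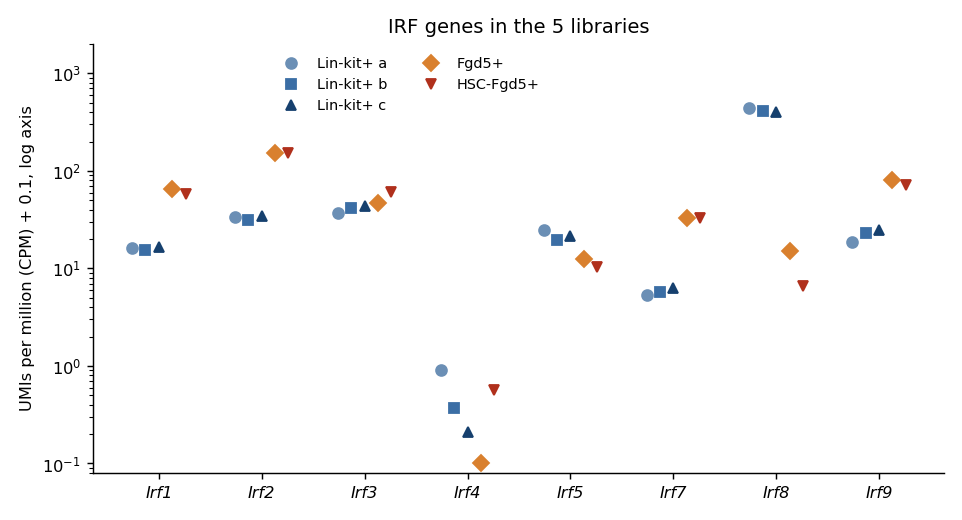
Level of each of the 8 IRF genes in the 5 libraries, as CPM plus 0.1 on a log axis, 1 point per library (blue, Lin-kit+ a, b and c; orange and red, Fgd5+ and HSC-Fgd5+). Irf8 falls from between 401 and 442 CPM to 14.9 and 6.46 CPM, Irf1, Irf2, Irf7 and Irf9 lie higher in both reporter-positive libraries, and Irf4 stays below 1 CPM throughout.

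The make-up of the family differed between the groups. Of the UMIs of the 8 genes, Irf8 gave 76.5%, 75.1% and 73.2% in the Lin-kit+ libraries, but 3.65% in Fgd5+ and 1.66% in HSC-Fgd5+. There Irf2 took 37.8% and 38.9%, followed by Irf9 with 19.8% and 18.2% and Irf1 with 16.1% and 14.7%.

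**Figure D2:**
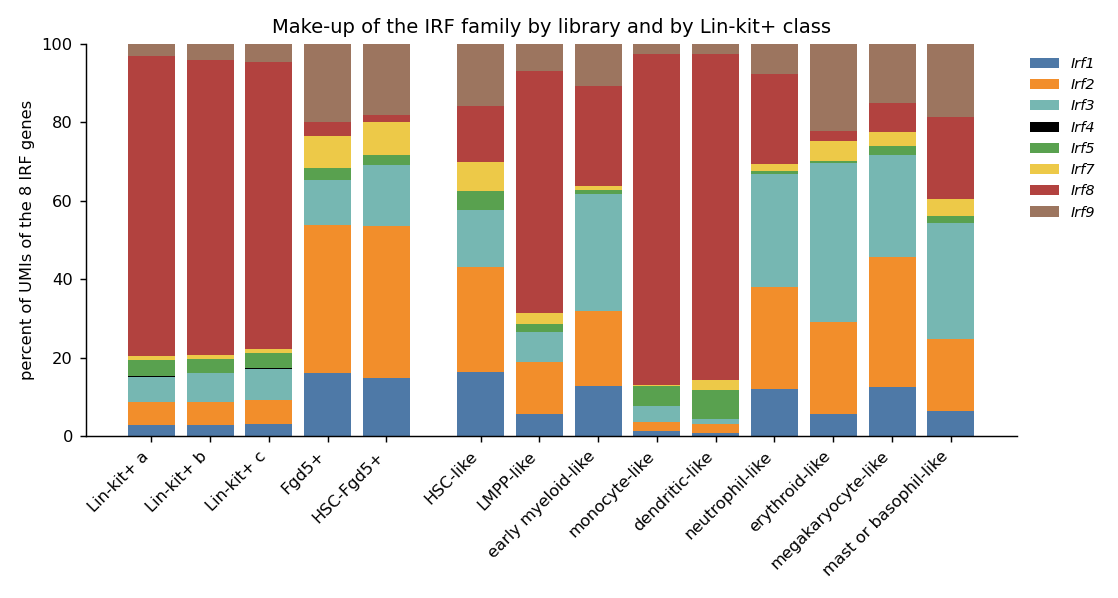
Share of each gene in the UMIs of the 8 IRF genes (vertical axis, percent), in each library (left group) and in each marker-defined class of the 3 Lin-kit+ libraries together (right group). Irf8 fills 84.6% of the monocyte-like and 83.3% of the dendritic-like bar, while Irf2 is the largest part of the HSC-like (26.8%) and megakaryocyte-like (33.3%) bars, as in the reporter-positive libraries.

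The Fgd5+ and HSC-Fgd5+ libraries answer whether the additional stem cell gate went with other IRF levels, with 1 library per gate and therefore no test. The ratio of HSC-Fgd5+ to Fgd5+ was 0.434 for Irf8 (95% counting interval 0.225 to 0.785) and 1.29 for Irf3 (1.03 to 1.62), and for Irf1, Irf2, Irf5, Irf7 and Irf9 it lay between 0.814 and 0.990 with intervals that included 1. These intervals cover counting error only. In HSC-like cells alone, Irf8 measured 7.25 CPM in Fgd5+ (4.69 to 10.7) and 6.58 CPM in HSC-Fgd5+ (3.40 to 11.5), and these intervals overlapped widely.

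To place the family within marrow, cells were clustered without the IRF genes, and clusters of the 11581 Lin-kit+ cells were named from marker lists. Monocyte-like cells (1605, with 11 of 12 markers raised) and dendritic-like cells (515, led by Cd74 and the class II genes H2-Aa, H2-Ab1 and H2-Eb1) formed 1 and 2 clusters. The others were neutrophil-like (2324), early myeloid-like (1608), erythroid-like (1147), HSC-like (558), mast or basophil-like (503), lymphoid-primed multipotent-like (LMPP-like, 414) and megakaryocyte-like (348). The larger erythroid-like cluster had 8 of 12 markers of its list but Pf4, a megakaryocyte marker, as its leading gene. HSC-like Lin-kit+ cells carried much less RNA of the HSC markers than HSC-like reporter-positive cells, and more of the LMPP markers, with values given below. In 4 clusters with 2559 cells no name was given. Values per class below are means ± SD over the 3 Lin-kit+ libraries (n = 3) and are a description without a test.

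Irf8 marked out the dendritic and monocyte side of Lin-kit+ marrow. It measured 2720, 2938 and 2639 CPM in dendritic-like cells (mean 2766 ± 155), 943, 928 and 897 CPM in monocyte-like cells (923 ± 23.3) and 471, 385 and 419 CPM in LMPP-like cells (425 ± 43.3). Each of these classes lay apart from the next in every library. HSC-like cells followed with 56.6 ± 11.1 CPM, apart from the early myeloid-like cells (29.5 ± 5.89), while early myeloid-like, mast or basophil-like (28.6 ± 21.0), neutrophil-like (15.3 ± 14.4) and megakaryocyte-like cells (15 ± 8.18) overlapped with their neighbours in this order. Erythroid-like cells had the least Irf8, 5.11 ± 1.53 CPM. The order dendritic, monocyte, LMPP held under all 5 other clusterings, but the LMPP-like level ranged from 208.2 to 556.7 CPM over them. The HSC-like level was 0, 0 and 8.80 CPM under 3 of them and 106.5 CPM without doublets, so its place in the order depends on the clustering.

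Irf8 was low in neutrophil-like cells outside 1 small cluster. That cluster of 51 cells, none from library a, held 222 of the 280 Irf8 UMIs of the class. It had a median of 10130 UMIs per cell, 42 of its cells were called doublets, and monocyte markers were present in it, with 258 CPM of F13a1 and 425 CPM of Ms4a6c against 6.13 and 2.99 CPM in the other neutrophil-like cells. Their part in the value was not tested. Without this cluster Irf8 measured 0.581, 3.06 and 6.50 CPM in neutrophil-like cells, a level near that of erythroid-like cells.

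Clusters without a name also held Irf8. A cluster of 815 cells led by Bcl2, Cnn3 and Lgmn and with Irf8 itself among its 10 leading genes, with markers of both the monocyte list (Csf1r, Ly86, Cx3cr1) and the dendritic list (Siglech, Cox6a2), measured 1106 ± 116 CPM and held 20.2% of the Irf8 UMIs of Lin-kit+ cells. Another, of 1167 cells led by Serpinf1, F13a1 and Fabp5, measured 545 ± 24.7 CPM and held 17.0%. Monocyte-like cells held 38.3% and the 2 dendritic-like clusters 7.05% and 10.3%. The 2 early myeloid-like clusters differed in every library, with 46.2 ± 10.4 CPM in the one led by Fkbp11 and Ctsg and 6.05 ± 4.32 CPM in the one led by Rgcc and Dmkn.

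As a share of cells at an equal depth of 1000 UMIs per cell, drawn once at random, Irf8 was detected in 86.2% of dendritic-like (95% Wilson interval 83.0% to 88.9%), 57.3% of monocyte-like (54.9% to 59.7%) and 25.2% of LMPP-like cells (21.2% to 29.6%). In HSC-like Lin-kit+ cells it was 4.85% (3.35% to 6.96%). Erythroid-like cells, which should lack Irf8, gave 0.524% (0.240% to 1.14%) at a median of 3162 UMIs before thinning, and HSC-like reporter-positive cells, at a median of 4009, gave 0.754% (0.397% to 1.43%). These erythroid-like cells come from Lin-kit+ libraries, which hold far more Irf8 in all, and are no measure of free RNA in the reporter-positive libraries. There the 97 megakaryocyte-like cells gave 2.06% without thinning (0.567% to 7.21%) at a median of 9509 UMIs, against 2.66% of HSC-like cells (1.89% to 3.73%). At a resolution of 2, a cluster of 97 cells with this same median was named HSC-like, with 9 supporting markers. The megakaryocyte-like cells may therefore be HSC-like and are no measure of free RNA either. How much free RNA adds to the Irf8 of HSC-like reporter-positive cells was not tested. Low shares moved with the draw, and the shares expected over all possible draws, computed after the data were seen, were 87.2% in dendritic-like, 58.6% in monocyte-like, 26.4% in LMPP-like, 4.19% in HSC-like Lin-kit+, 0.569% in erythroid-like and 0.718% in HSC-like reporter-positive cells. HSC-like reporter-positive cells held 37 Irf8 UMIs, or 7.02 CPM (4.94 to 9.67). All these intervals cover counting error over pooled cells and not the spread between libraries. Without thinning, the shares were 95.1% of dendritic-like, 98.0% of monocyte-like, 55.3% of LMPP-like, 11.5% of HSC-like and 1.92% of erythroid-like Lin-kit+ cells.

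Irf5 had the same 2 leading classes as Irf8. It measured 290, 195 and 251.2 CPM in dendritic-like cells (246 ± 47.8) and 62.1, 49.2 and 54.7 CPM in monocyte-like cells (55.3 ± 6.44), each apart from the next class. HSC-like cells (19.9 ± 3.91) and LMPP-like cells (13.9 ± 3.29) overlapped, and all remaining named classes were below 5 CPM, with 0.581 ± 0.602 CPM in neutrophil-like cells, where all 11 UMIs of Irf5 came from the small cluster of high UMI totals.

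Irf7 was also highest in dendritic-like cells, at 95.6, 69.6 and 81.5 CPM (82.2 ± 13.01), but not in monocyte-like cells, which had 1.89 ± 0.685 CPM. Between the 2 dendritic-like clusters it differed in every library, with 145, 103 and 121 CPM in the one led by Cd74 and H2-Eb1 and 65.3, 42.2 and 56.8 CPM in the one led by H2-Aa and Ifi205. HSC-like (23.7 ± 10.2) and LMPP-like cells (20.9 ± 5.15) came next and overlapped. Neutrophil-like (1.36 ± 0.778) and early myeloid-like cells (1.05 ± 0.515) were as low in Irf7 as monocyte-like cells.

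In this clustering, Irf1 and Irf2 were highest in HSC-like cells, a class that in Lin-kit+ libraries also carried LMPP markers and the Cd48 transcript (below). Irf1 measured 72.1, 69.3 and 52.4 CPM there (64.6 ± 10.7), apart from LMPP-like cells (39.7 ± 9.77), and the classes below, from 22.9 to 8.32 CPM, overlapped one with the next. Irf2 measured 111, 94.3 and 98.9 CPM in HSC-like cells (101 ± 8.69) and overlapped with LMPP-like (83.4 ± 14.4) and dendritic-like cells (82.3 ± 24.2). Megakaryocyte-like cells (72.5 ± 9.08) overlapped with these but lay below HSC-like cells in every library. These 4 classes lay above erythroid-like cells (37.9 ± 4.49) and the rest, down to 20.0 ± 3.78 CPM in early myeloid-like cells. Of the HSC-like cells, 524 lay in 1 cluster, and the other 34 gave 111, 0 and 65.65 CPM of Irf1 (7 UMIs). With a resolution of 0.5, without interferon-stimulated genes and with filtered cells, the class held between 33 and 45 Lin-kit+ cells. Class levels of Irf1 and Irf2 under those clusterings are not given here, so the top place rests on this clustering.

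Irf3 varied least between classes, over a 2.44-fold range of means. It ran from 64.4 ± 10.99 CPM in erythroid-like to 26.4 ± 2.36 CPM in neutrophil-like cells. Irf9 covered an 11.4-fold range and ran from 75.2 ± 26.1 CPM in dendritic-like and 55.4 ± 12.3 CPM in HSC-like cells to 10.8 ± 1.59 CPM in early myeloid-like and 6.62 ± 2.81 CPM in neutrophil-like cells. Neighbours overlapped in most places of both orders.

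Irf4 lay mostly in a small cluster without a name. Of its 17 UMIs in Lin-kit+ cells, 13 lay in 8 cells of a 26-cell cluster led by Jchain and Mzb1, genes of antibody-secreting cells, and 2 in 1 LMPP-like cell. Markers of the dendritic list (Cd74, H2-Eb1, Cox6a2 and Ly6d) were raised in that cluster as well. In dendritic-like, monocyte-like and HSC-like cells no Irf4 UMI was counted.

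**Figure D3:**
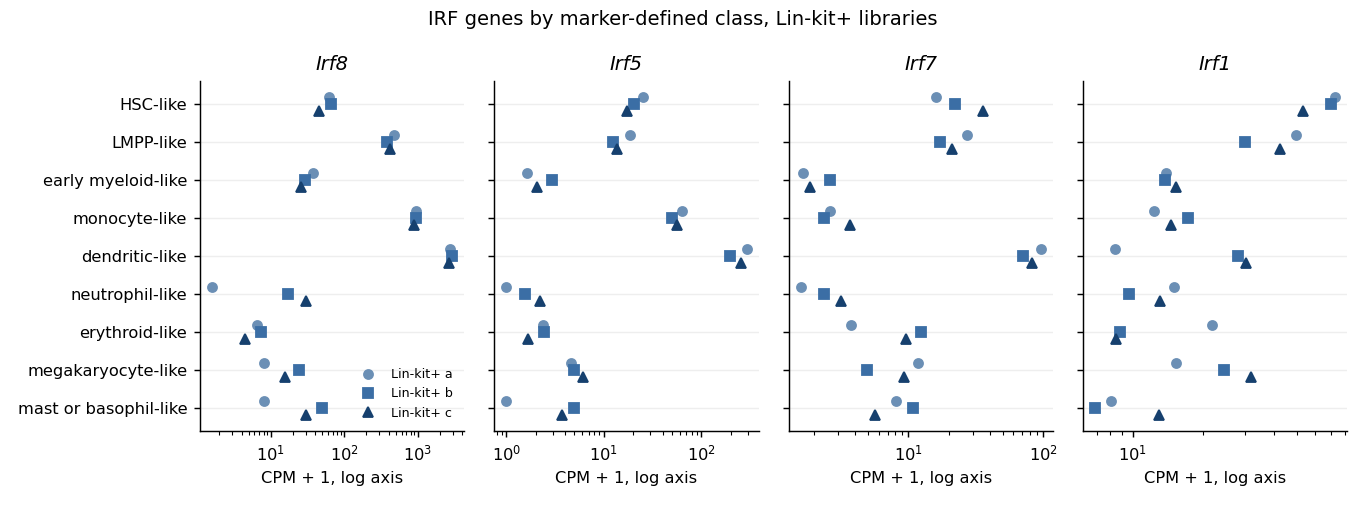
Levels of Irf8, Irf5, Irf7 and Irf1 (CPM plus 1, log axes that differ between panels) in the named classes of Lin-kit+ marrow, 1 point for each of the 3 Lin-kit+ libraries. Irf8 and Irf5 peak in dendritic-like and then monocyte-like cells, Irf7 peaks in dendritic-like cells and is low in monocyte-like cells (1.89 CPM), and Irf1 peaks in HSC-like cells.

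Over the 18 clusters with at least 50 Lin-kit+ cells, the genes with the most similar pattern to each member were named by the Pearson correlation of log2(CPM + 1) among 7327 genes of at least 500 UMIs. For Irf8 these were Pkib (r = 0.985), Arhgap17 (0.968) and Arl5c (0.964), and for Irf5 they were S100a4 (0.981), Fgd2 (0.972) and Plekho1 (0.970). Irf7 was closest to Arid4a (0.953), Lypla2 (0.918) and Inpp5d (0.911), Irf1 to Hmox2 (0.893), Xrcc4 (0.883) and Arhgap25 (0.869), and Irf2 to Gcnt2 (0.943), Srebf2 (0.926) and Kansl3 (0.925). Irf3 was closest to Srrm2 (0.951), Heg1 (0.949) and Mat2a (0.945), and Irf9 to Sf3b1 (0.960), Smim15 (0.954) and Trim26 (0.949). Within the family, Irf8 and Irf5 were the most alike (r = 0.941), followed by Irf7 and Irf9 (0.882). The clusters share libraries and differ in depth, so these values only describe likeness.

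Whole libraries differ in their cell types, so HSC-like cells were also compared between the groups. Within this class Irf8 was lower and Irf2 higher in reporter-positive cells, and the differences of Irf1, Irf7 and Irf9 did not pass the test. Of the 7 members tested, 2 passed an adjusted p of 0.05 (edgeR, over 7440 genes), 1 lower and 1 higher. Of all genes, 25.8% passed, 12.3% higher and 13.5% lower, so the count of members is again near the background. The class was not the same in both groups, however. Of the Lin-kit+ HSC-like cells, 524 lay in a cluster led by Myl10, Wfdc17 and Hlf and 34 in the cluster led by Meg3, Ltb and Mllt3, which held 1200 of the 1202 HSC-like reporter-positive cells. Lin-kit+ HSC-like cells carried 150, 133 and 173 CPM of the Cd48 transcript, against 0.870 CPM in Fgd5+ and 0.548 CPM in HSC-Fgd5+. The HSC gate of the latter excludes cells by CD48 on the surface and not by its transcript. The stem cell marker Slamf1 measured 0, 9.62 and 2.33 CPM in Lin-kit+ HSC-like cells against 40.0 and 41.7 CPM. LMPP markers summed to between 1138 and 1264 CPM in Lin-kit+ HSC-like cells, against 296 and 249 CPM in the reporter-positive cells. The 10 HSC markers summed to 535, 710 and 764 CPM in Lin-kit+ HSC-like cells, against 1918 and 2006 CPM. The name of the class therefore fits its Lin-kit+ cells less well. Their part in the IRF results was not tested.

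Irf8 measured 60.1, 65.5 and 44.2 CPM in HSC-like cells of the Lin-kit+ libraries and 7.25 and 6.58 CPM in those of Fgd5+ and HSC-Fgd5+ (log2 fold change -3.07, SE 0.28, edgeR adjusted p = 2.55e-05). All 92 UMIs behind the Lin-kit+ values came from the cluster led by Myl10. The 34 Lin-kit+ cells in the cluster of the reporter-positive cells held 0 Irf8 UMIs among 95534, which allows up to 31.4 CPM. Where another clustering, tried after the data were seen, placed only such cells in the class, between 33 and 45 Lin-kit+ cells were left with 0 or 1 Irf8 UMI and no member could be tested. This was so with a resolution of 0.5, without interferon-stimulated genes and with filtered cells, so the difference of Irf8 within HSC-like cells rests on where the class ends. At a resolution of 2 and without doublets, where the class held 526 and 772 Lin-kit+ cells, the log2 fold change of Irf8 was -2.96 and -4.14.

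Irf2 measured 111, 94.3 and 98.9 CPM in HSC-like Lin-kit+ cells against 165 and 158 CPM in Fgd5+ and HSC-Fgd5+ (log2 fold change 0.57, SE 0.14, edgeR adjusted p = 0.0102). It did not pass with DESeq2 (adjusted p = 0.097), without Lin-kit+ library b (edgeR adjusted p = 0.051) or without the Fgd5+ library (edgeR adjusted p = 0.092), although its log2 fold change stayed between 0.46 and 0.70. The 34 Lin-kit+ cells in the cluster of the reporter-positive cells measured 111, 151 and 197 CPM of Irf2 (14 UMIs in all), and the 524 in the other cluster 111, 92.1 and 95.3 CPM, so the difference rests mainly on the latter.

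The other members did not pass the test within HSC-like cells. The log2 fold changes were -0.01 for Irf1 (SE 0.18), 0.30 for Irf7 (SE 0.27), 0.38 for Irf9 (SE 0.19), -0.07 for Irf3 (SE 0.19) and -0.80 for Irf5 (SE 0.31, edgeR adjusted p = 0.082). The Irf1 levels of both groups overlapped, at 72.1, 69.3 and 52.4 CPM against 69.6 and 64.1 CPM. Irf7 at 15, 21.2 and 34.9 CPM against 35.1 and 35.1 CPM, and Irf9 at 42.1, 57.8 and 66.3 CPM against 89.6 and 72.4 CPM, were both higher in each reporter-positive library. A p that misses the threshold does not show equal levels, and whether a gene differed less here than between whole libraries was not tested. On the CPM scale, 3 members (Irf2, Irf7 and Irf9) were higher and 2 (Irf5 and Irf8) lower in both reporter-positive libraries than in any Lin-kit+ library, beside 32.0% and 19.1% of all tested genes.

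**Figure D4:**
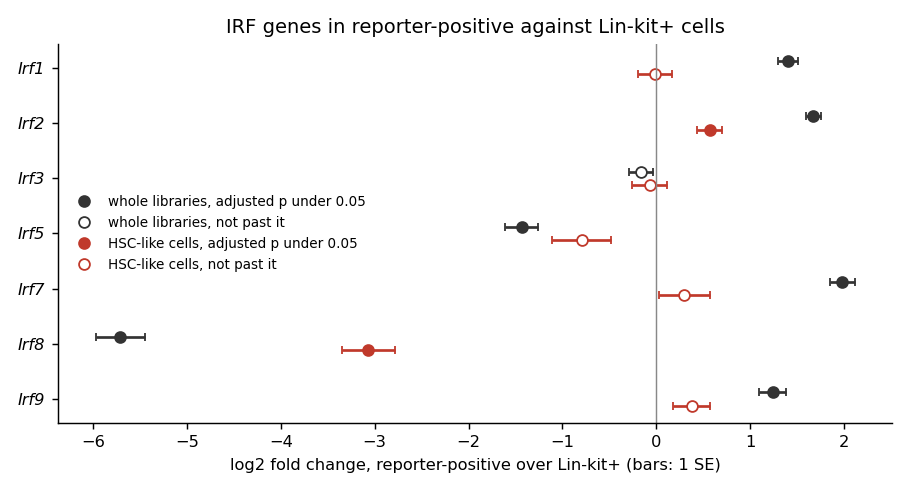
Fitted log2 fold change of 7 IRF genes, reporter-positive over Lin-kit+, in whole libraries (black) and in HSC-like cells (red), with bars of 1 SE and filled points where the edgeR adjusted p is under 0.05. Irf8 lies at -5.71 and -3.07, and Irf1 moves from 1.41 in whole libraries to -0.01 in HSC-like cells.

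Genes around the family were read from 6 lists in the comparison of whole libraries, beside the 32.7% of genes higher and 30.4% lower and a median log2 fold change of 0.07 over all tested genes. Counts within HSC-like cells stand beside 12.3% of genes higher and 13.5% lower there. Among 32 tested interferon-stimulated genes, the targets of the IRF9 complex, 24 were higher and 2 lower, with a median of 1.41. Ifit1, which binds foreign RNA, measured 1.10, 1.55 and 2.36 CPM in Lin-kit+ and 42.7 and 45.23 CPM in Fgd5+ and HSC-Fgd5+ (log2 fold change 4.05), and Ifi44 measured 1.0, 1.23 and 2.08 against 32.4 and 42.9 CPM (4.01). The immunoproteasome subunits Psmb8 (-0.74) and Psmb9 (-0.27) were the 2 that were lower, Psmb9 on the TMM scale only, since its CPM of 222 and 210.5 lay above the 181, 173 and 187 of the Lin-kit+ libraries. Within HSC-like cells, 28 of these genes were tested, 10 were higher and 2 lower, and the median was 0.52 beside 0.02 for all genes. Among those that passed there with at least 100 UMIs, Irgm1 (log2 fold change 1.47) and Herc6 (1.43) rose most and Ifi27 (-1.13) and Psmb8 (-0.69) fell most.

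Of 9 receptor and JAK-STAT genes, 4 were higher and 1 lower (median 0.33). The kinase gene Jak1 rose from 42.0, 45.3 and 38.6 CPM in Lin-kit+ to 132 and 149 CPM in Fgd5+ and HSC-Fgd5+ (log2 fold change 1.20). Ifngr1, a chain of the interferon gamma receptor, fell from 174, 200 and 215 CPM to 88.8 and 85.9 CPM (-1.71). Within HSC-like cells 2 of 8 tested genes passed, both higher, among them Jak1 (0.60). Of all genes, 12.3% were higher there and 25.8% passed in either direction. Of 6 inhibitors of this pathway, 3 were higher and 2 lower (median 0.54). Usp18, which blocks the type I receptor, was higher (1.01), and the phosphatase genes Ptpn6 (-0.77) and Ptpn2 (-0.47) were lower, though with library totals none of the 6 was lower. Within HSC-like cells 5 were tested and 1 was higher.

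Of 14 tested sensors and IRF-activating kinases, 4 were higher and 4 lower (median 0.05). The RNA sensor genes Ddx58 (log2 fold change 2.36) and Ifih1 (1.96) rose, from 4.0, 3.85 and 3.91 CPM to 31.7 and 25.9 CPM and from 5.60, 6.85 and 7.12 CPM to 33.4 and 42.5 CPM. The kinase genes Ikbke (-0.71) and Irak4 (-0.59) were lower on the TMM scale, while Tbk1, a kinase of IRF3 named after its value was seen, was higher (0.55), and with library totals 8 of the list were higher and none lower. Within HSC-like cells 9 were tested, with Ifih1 higher (1.3) and Tmem173, which encodes the DNA-sensing adaptor STING, lower (-0.88).

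Of 9 tested partners and corepressors, 4 were higher and 3 lower (median 0.38). Irf2bpl (2.44) and Irf2bp1 (1.19) rose and their relative Irf2bp2 fell (-1.41). Irf2bp1 and Irf2bp2 are named for binding to IRF2. Batf3, a partner of IRF8 in dendritic cells, measured 8.40, 7.07 and 5.04 CPM in Lin-kit+, 0.720 CPM in Fgd5+ and 0 in HSC-Fgd5+ (-4.32). Spi1, the Ets partner of IRF8, had a log2 fold change of 0.03 (SE 0.65) in whole libraries and was the 1 of 8 tested genes that passed within HSC-like cells, where it was higher in reporter-positive cells (1.34), at 102 and 84.4 CPM against 75.1, 34.7 and 15.1 CPM. All 11 regulators of monocyte, dendritic and neutrophil fates passed, 4 higher and 7 lower (median -1.80). The granulocyte factors Cebpe (-6.85) and Cebpa (-4.71) fell most, while Relb (3.04) and Bcl11a (1.26) rose most. Within HSC-like cells 5 were tested and 1 was higher (median 0.01).

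**Figure D5:**
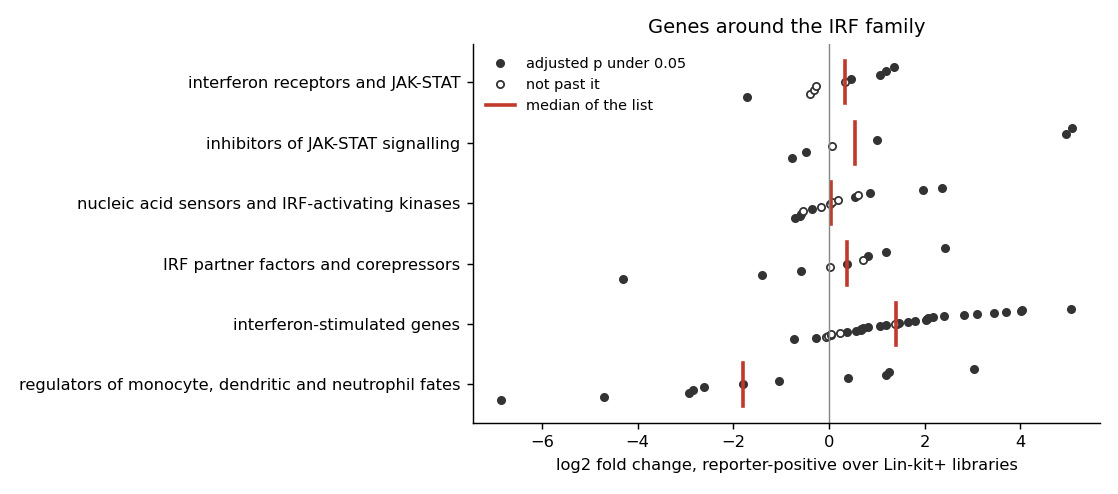
Fitted log2 fold change, reporter-positive over Lin-kit+ libraries, of the tested genes of 6 lists around the IRF family, 1 point per gene (filled where the edgeR adjusted p is under 0.05) and a red bar at the median of each list. The interferon-stimulated genes have a median of 1.41 and the regulators of myeloid fates one of -1.80.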

How the data were processed

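Single-cell libraries were made with the Chromium 3′ kit (V2). Per the labels, the authors used Cell Ranger (1.3 and 2.1), Seurat 2.3.4 and mm10, and they deposited 1 table of raw, not normalized UMI counts in which every gene has a UMI in at least 3 cells. The annotation is not given in the sources used here. All cells were kept. The IRF members, the gene lists and the tests were chosen with earlier results of these data known.

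UMI counts were added up over the cells of each library, or over its HSC-like cells, and fitted in edgeR 4.0.16 (R 4.3.3) by the quasi-likelihood method after TMM scaling and filterByExpr, with all 5 libraries, no covariate and Benjamini-Hochberg adjustment over all tested genes. DESeq2 1.42.0 was an alternative. Tested on simulated data for whole libraries (11278 genes, 200 changed), 86.2% of 4-fold and 52.4% of 2-fold changes were recovered and 6.17% of calls fell on unchanged genes. For HSC-like cells (7212 genes) the values were 97.9%, 57.5% and 7.75%. In these simulations only 200 genes changed, up or down at random, from a profile common to all libraries. In the data 63.1% of tested genes passed in whole libraries and 25.8% in HSC-like cells. The simulated rates therefore do not measure the error of the real comparisons.

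Cells were clustered (scanpy 1.11.5, leidenalg 0.10.2, Python 3.11.15) from 2000 variable genes without the IRF genes, 20 principal components, 15 neighbours and a resolution of 1. Of the 20 clusters, those with at least 3 markers of a list at a fold of 2 and in 5% of cells and at least 1 among their 10 leading genes were named, unless more leading genes belonged to another list or marked antibody-secreting cells. These naming thresholds were chosen with the clusters in view. Scrublet called 165 cells (1.28%) doublets, which were kept. A filter of 1000 UMIs and 10% mitochondrial counts, an alternative, left 12699 cells. Shares were computed after thinning to 1000 UMIs. Intervals at 95% are exact Poisson for levels, exact binomial for ratios of 2 libraries and Wilson for shares, and a count of 0 was read as up to 3 counts.

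Named pathway genes were the 2 largest rises and the 2 largest falls per list among those past an adjusted p of 0.05 with at least 100 UMIs. Named similar genes were the 3 of highest correlation per member. Depth ran from 2166655 to 36080242 UMIs per library. Protein sequences, flow cytometry and lineage tracing were not analysed here, and a few genes that these rules would name are not reported here.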

Additional observations from a re-analysis of the deposited data

How the results depend on the processing

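In whole libraries, 89 of 91 log2 fold changes over 13 alternatives kept direction and call. The same 6 members passed in each, and with library totals Irf3 passed as well (edgeR adjusted p = 0.036). The exceptions were both Irf3, at 0.38 with library totals and from -0.34 to 0.0059 with 1 library left out, where leaving out Fgd5+ gave the highest value. In HSC-like cells 71 of 84 values over 12 alternatives kept both, and 8 turned direction, all of genes close to 0. Irf1 moved to 0.12 with library totals, 0.011 with the clusters of the groups set against each other, 0.076 after clustering without doublets and from -0.20 to 0.076 with 1 library left out. Irf3 moved to 0.064 with library totals and from -0.18 to 0.11 with 1 library left out. Irf2 lost its call in 3 alternatives, and Irf5 (resolution of 2) and Irf7 (clustering without doublets) gained one. The cause was not tested. Members past the threshold in HSC-like cells numbered 1 with DESeq2 and 1 to 2 with 1 library left out. Genes past it numbered 997 with DESeq2, 2953 after clustering without doublets and 1125 (without Fgd5+) to 2133 with 1 library left out. Without HSC-Fgd5+ they numbered 1137 and without Lin-kit+ c 1276.

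With library totals, 8 sensors and kinases were higher and 0 lower, 0 inhibitors were lower and 1 interferon-stimulated gene was lower, and with DESeq2 2 sensors and kinases were higher. The mean Irf8 level of Lin-kit+ classes moved with the clustering. In monocyte-like cells it was 757.5 CPM with interferon-stimulated genes left out and 1024 CPM without doublets. In LMPP-like cells it was 261.3 CPM at a resolution of 0.5, 556.7 CPM at 2, 212.7 CPM with interferon-stimulated genes left out, 208.2 CPM with filtered cells and 547.3 CPM without doublets. In HSC-like cells it was 0 CPM at a resolution of 0.5, 0 CPM with interferon-stimulated genes left out, 8.80 CPM with filtered cells and 106.5 CPM without doublets. In the first 3 of these clusterings too few HSC-like Lin-kit+ cells were left to test any member between the groups.

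No paired analysis was possible because the labels give the libraries no replicate numbers. Depth limits Irf4 (18 UMIs), and the spread between mice is unknown.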
